A study of Mus musculus with 6 samples.

Results

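The Bcl2 family decides whether a cell passes through the mitochondrial route of apoptosis, and 10 of its genes were followed here in regulatory T cells (Treg) recovered from transplanted mice. They were chosen by name as rows of the deposited gene table. All 10 were found among 29199 genes, and all 10 were among the 18321 genes retained for testing. The cells were wild-type Treg from B6 Foxp3-Thy1.1 mice, expanded in culture with IL-2, TGF-β and 3 days of anti-CD3/CD28 beads. They were injected into lethally irradiated hosts, either C57BL/6 J or CD45.1+ B6 mice, together with bone marrow of C57BL/6 J and B6D2F1 origin and with naive conventional CD4 T cells (Tconv), and were sorted from the spleen 3 weeks later for total RNA sequencing. The comparison is between 3 libraries of Treg that had been exposed to wild-type (WT) Tconv and 3 libraries of Treg that had been exposed to HP1α-deficient Tconv (KO), HP1α being a protein of heterochromatin. The Treg were WT for HP1α in both groups, so that the genotype of the neighbouring Tconv is the labelled difference. The wild-type and mutant littermates of the study, the donors of Tconv, were 6 to 12 weeks old. No age is given for the Treg donors or the hosts. How many mice gave each library is not stated in the sources used here. The p-values therefore measure the spread between these libraries.

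The family works through protein binding at the outer mitochondrial membrane. Survival members (Bcl2, Bcl-xL encoded by Bcl2l1, and Mcl1) hold the effectors Bax and Bak (Bak1) in check. BH3-only members, which are Bim (Bcl2l11), Puma (Bbc3), Noxa (Pmaip1), Bid and Bad, sense stress and occupy the groove of the survival members or engage the effectors directly. Once freed, Bax and Bak open the membrane, cytochrome c escapes and caspases are activated. In Treg, Mcl1 is known to be required for survival and Bim is known to drive the death of cells deprived of IL-2. Noxa is known to bind chiefly Mcl1.

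The feature that these proteins share is the BH3 domain, a short helix whose core has a leucine and, further along, a small residue followed by aspartate. The coding sequence of the canonical GENCODE transcript of 9 members was searched in frame for a leucine codon, 3 codons of any kind, a codon for glycine, alanine or serine and a codon for aspartate. Each of the 9 had 1 match. The bases around the match are shown because they make visible a feature that effectors, inhibitors and BH3-only genes of the family have in common. The runs below hold 15 codons each, 5′ to 3′ on the coding strand, read from GRCm39 transcripts, and the capitals mark the leucine codon and the pair of codons that follows the spacer.
Bcl2 (chr1:106640299-106640343, minus strand): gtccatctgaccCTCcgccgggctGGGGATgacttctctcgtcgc
Bcl2l1 (chr2:152671611-152671655, minus strand): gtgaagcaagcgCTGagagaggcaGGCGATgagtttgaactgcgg
Mcl1 (chr3:95566735-95566779, plus strand): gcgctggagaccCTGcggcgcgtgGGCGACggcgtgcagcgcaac
Bax (chr7:45115415-45115459, minus strand): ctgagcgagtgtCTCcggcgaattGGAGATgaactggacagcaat
Bak1 (chr17:27241499-27241543, minus strand): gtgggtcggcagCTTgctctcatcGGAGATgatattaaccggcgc
Bcl2l11 (chr2:127989058-127989102, plus strand): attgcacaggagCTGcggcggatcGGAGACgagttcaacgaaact
Bbc3 (chr7:16047686-16047730, plus strand): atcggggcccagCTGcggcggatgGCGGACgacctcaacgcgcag
Bid (chr6:120874244-120874288, minus strand): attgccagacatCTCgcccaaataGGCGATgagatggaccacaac
Bad (chr19:6928148-6928192, plus strand): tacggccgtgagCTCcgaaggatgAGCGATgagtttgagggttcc

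The small residue was glycine in 7 of the 9, alanine in Bbc3 and serine in Bad. The search itself allowed only these residues, followed by aspartate. A match describes the letters of the coding sequence and is not a measurement of binding.

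Each library was sequenced to between 87421755 and 119078882 counts, and the counts behind the 10 genes ranged from 868 to 80083 per library. Treg markers were present in all libraries, with Foxp3, the lineage factor of Treg, at 154 to 252 CPM (read counts scaled to library size). Of the 8 Treg markers, 4 were lowest in replicate 2 with HP1α KO Tconv, which were Foxp3 (154 CPM against 200.1 to 252 CPM elsewhere), Il2ra (121 against 161 to 199 CPM), Cd3e (147 against 188 to 221 CPM) and Cd4. Tnfrsf18 was highest there, Ikzf2, Ctla4 and Thy1 were neither, and the sum of the 8 Treg markers there, 4953 CPM, was within the range of the other libraries. Replicate 3 with WT Tconv stood apart by RNA of other cells. There the 7 red cell genes with a row in the table summed to 6155 CPM, against 393 to 736 CPM in the other 5 libraries, and the 8 neutrophil genes to 1847 CPM, against 42.4 to 230 CPM. None of these red cell genes was at 0 in any library. In bulk RNA, fewer cells of a type and less RNA per cell cannot be told apart.

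The levels of the 10 genes were first compared with each other, as CPM per kilobase of annotated exon, over all 6 libraries. Mcl1 led at 193 CPM per kilobase ± 14.7 (SD, n = 6), and its lowest library (169) was above the highest library of any other of the 10 (82.0). Pmaip1, whose product binds Mcl1, came next at 59.7 ± 16.9, followed by Bax at 39.5 ± 1.41. These neighbours overlapped between libraries. Bak1 at 26.8 ± 1.78 and Bcl2l1 at 14.9 ± 2.08 were each separated from their neighbours in the order.

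Bcl2l11 and Bcl2 were close to each other, at 7.57 ± 0.733 and 7.29 ± 0.877 CPM per kilobase, and overlapped. Bid (3.08 ± 0.436), Bad (2.46 ± 0.390) and Bbc3 (2.42 ± 0.623) closed the order, with overlap between each pair of neighbours. Part of this order depends on which length is used, because the annotation gives long extra exons to several of these genes. Bid has 9796 exonic bases in all but a canonical transcript of 2202 bases. With the canonical transcript, a choice made after the data had been seen, Bax moved ahead of Pmaip1 (75.2 against 59.7 CPM per kilobase, with overlap). Bak1 and Bcl2l1 were no longer separate on that length (27.0 and 23.5 CPM per kilobase, with overlap). Bcl2 came behind Bid and Bad (9.27 against 13.7 and 9.30 CPM per kilobase, the last with overlap), while Mcl1 stayed first and Bbc3 last.

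**Figure D1:**
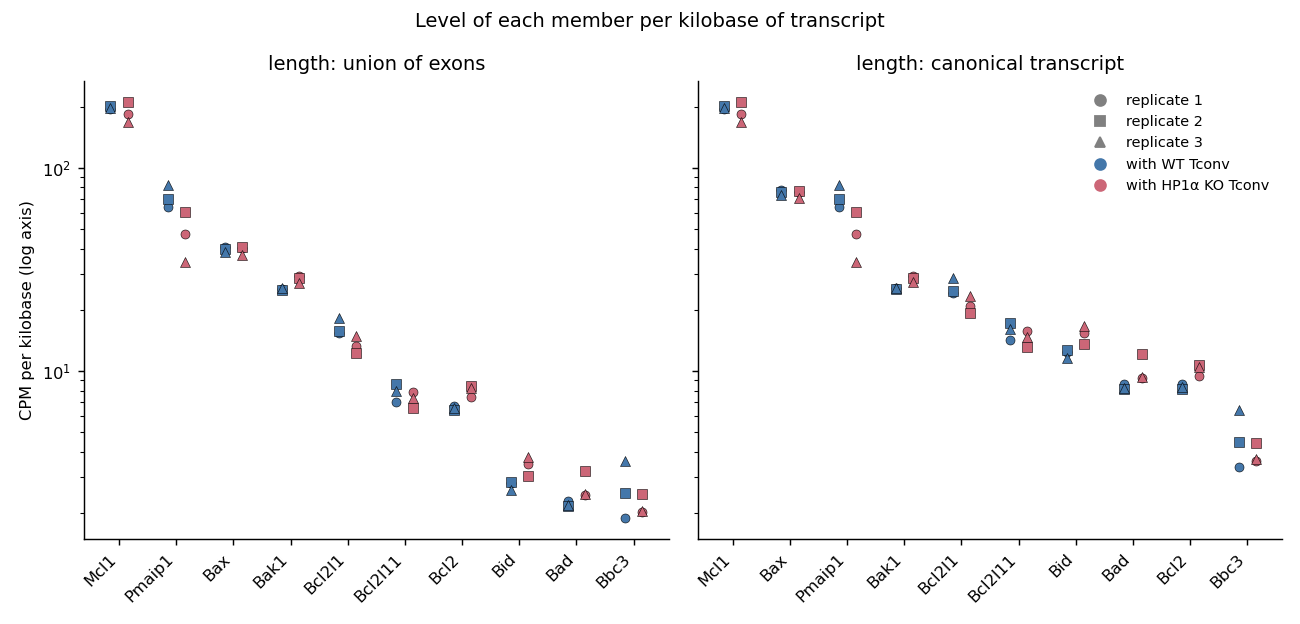
CPM per kilobase (log axis) of the 10 genes in each of the 6 libraries, ordered by their mean, with the exon union (left) or the canonical transcript (right) as the length. Mcl1 lies above the other 9 in every library on both scales, while the order of Pmaip1 and Bax, and the place of Bcl2, differ between the panels.

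The members were then compared between groups with the quasi-likelihood test of edgeR on all genes, with Benjamini-Hochberg adjustment. None of the 10 genes had an adjusted p-value under 0.05, where the share over all genes tested was 0% (0 of 18321). Adjusted p-values of the 10 genes ranged from 0.209 (Bcl2) to 0.923 (Bax). At an unadjusted p-value under 0.05 there were 5 of the 10 genes, beside 14.5% of all genes tested. Of these, 3 (Bcl2, Bid and Bak1) were higher with HP1α KO Tconv, beside 6.98% of all genes, and 2 (Bcl2l1 and Pmaip1) were lower, beside 7.52%. The groups did not overlap in CPM for 6 of the 10 genes (23% of all genes), of which 4 were higher (11.5% of all genes) and 2 lower (11.6% of all genes) with HP1α KO Tconv. DESeq2 gave an adjusted p-value under 0.05 to 2 of the 10 genes, Bcl2 and Pmaip1, beside 5.5% of the 12501 genes to which it assigned one. The median log2 fold change, HP1α KO Tconv over WT Tconv, was -0.04 over the 10 genes and -0.01 over all genes tested.

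**Figure D2:**
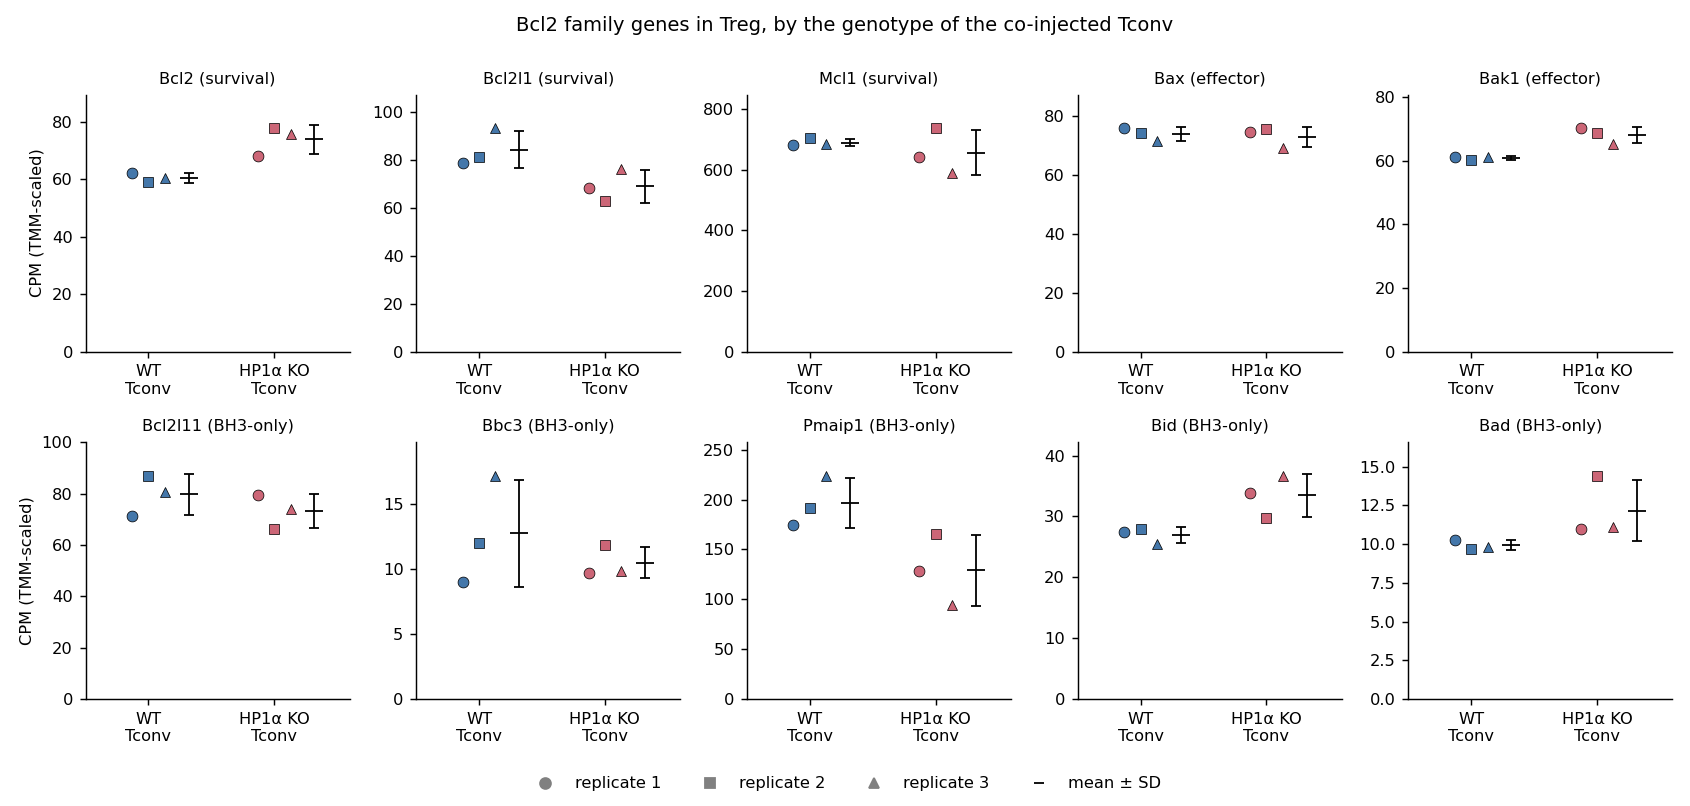
CPM of each gene (vertical axes start at 0) in Treg exposed to WT Tconv (blue) and to HP1α KO Tconv (red), with replicates 1, 2 and 3 as circle, square and triangle and the mean ± SD beside them. The groups do not overlap for Bcl2, Bcl2l1, Bak1, Pmaip1, Bid and Bad, and they overlap for Mcl1, Bax, Bcl2l11 and Bbc3.

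Among the survival members, Bcl2 and Bcl2l1 lay in opposite directions and Mcl1 overlapped between groups. Bcl2 (ENSMUSG00000057329, chr1:106465908-106642060, minus strand), the founding inhibitor of the family, was at 62.2, 58.9 and 60.4 CPM in replicates 1, 2 and 3 with WT Tconv. It was at 68.2, 77.8 and 75.7 CPM with HP1α KO Tconv, so that every library of this group was above every library of the other. The log2 fold change of 0.29 (SE 0.0721) amounted to 1.22-fold (95% interval 1.09 to 1.37), at an adjusted p-value of 0.209 (edgeR) or 0.0300 (DESeq2).

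DESeq2 did not call Bcl2 without any 1 of the 3 WT Tconv libraries (adjusted p-values of 0.0555 to 0.116). Nor did it without replicate 3 with HP1α KO Tconv (0.0742). It called Bcl2 without replicate 1 or replicate 2 of that group (DESeq2 adjusted p-values of 5.07e-04 and 0.0147). An antisense lncRNA, D630008O14Rik, covers 6.1% of the exonic bases of Bcl2 on the opposite strand. The libraries were made with a stranded kit, but the strand setting of the counting is not given in the sources used here.

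Bcl2l1 (ENSMUSG00000007659, chr2:152622582-152673655, minus strand) encodes Bcl-xL, the survival protein of activated T cells and also of red cell precursors. Its values were 78.7, 81.1 and 93.4 CPM with WT Tconv against 68.2, 62.7 and 76.3 CPM with HP1α KO Tconv, and the groups did not overlap. The highest value belonged to the WT Tconv library that also held the most red cell RNA. The log2 fold change of -0.29 (SE 0.0970) amounted to 0.818-fold (95% interval 0.701 to 0.955), at an adjusted p-value of 0.249 (edgeR) or 0.0955 (DESeq2). Without that library the log2 fold change was -0.21. Leaving out a library cannot make separate groups overlap, and the nearest values were then 78.7 CPM (WT Tconv) and 76.3 CPM (HP1α KO Tconv). DESeq2 called Bcl2l1 in 1 of the 6 fits that left out a library, the one without replicate 3 of Treg exposed to HP1α KO Tconv (adjusted p-value 0.0372). The part of red cell RNA in the difference was not tested beyond this.

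Mcl1 (ENSMUSG00000038612, chr3:95566026-95570487, plus strand) is a short-lived inhibitor and the most abundant of the 10 genes. It was at 679, 703 and 684 CPM with WT Tconv and at 641, 737 and 589 CPM with HP1α KO Tconv, where the spread was wider and enclosed the other group. The fitted change was 0.952-fold with a 95% interval of 0.824 to 1.10 (edgeR adjusted p-value 0.748). Its sign turned without replicate 3 of Treg exposed to HP1α KO Tconv (log2 fold change 0.0010). Without replicate 2 of that group it was -0.16 (edgeR adjusted p-value 0.258), and DESeq2 called Mcl1 in that fit (adjusted p-value 0.0443).

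Of the effectors, Bak1 differed between groups by a narrow margin and Bax by less than the spread between libraries. Bax (ENSMUSG00000003873, chr7:45111015-45116325, minus strand) was at 75.8, 74.3 and 71.4 CPM with WT Tconv and 74.4, 75.4 and 69.0 CPM with HP1α KO Tconv. With 0.988-fold and a 95% interval of 0.889 to 1.10, it was the gene with the smallest fitted difference among the 10, and its sign turned with upper quartile scaling and with library totals (log2 fold changes of 0.0026 and 0.020 against -0.02). Bax shares 10.3% of its exonic bases with Gm45808 on the same strand (193 bases, or 19.8%, of the canonical transcript), and how much of its count is ambiguous was not measured.

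Bak1 (ENSMUSG00000057789, chr17:27238784-27247983, minus strand), which sits in the mitochondrial membrane already in healthy cells, was at 61.1, 60.2 and 61.3 CPM with WT Tconv and 70.3, 68.7 and 65.3 CPM with HP1α KO Tconv. All 3 libraries of the latter group were higher. The change was 1.12-fold (95% interval 1.01 to 1.23), at an adjusted p-value of 0.295 (edgeR) or 0.217 (DESeq2). Bak1 had a within-group SD of 0.0389 on the log2 scale, lower than that of all but 2.1% of the genes tested. Exons of Ggnbp1 cover 18.2% of its exonic bases on the opposite strand.

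The BH3-only members held both the largest fitted difference among the 10 genes, that of Pmaip1, and the least precise one, that of Bbc3. Pmaip1 (ENSMUSG00000024521, chr18:66591604-66598636, plus strand) encodes Noxa, a p53 target that promotes the loss of Mcl1 protein. It was at 174, 192 and 224 CPM with WT Tconv and at 128, 165 and 94.3 CPM with HP1α KO Tconv. The highest library of the latter group was just under the lowest of the former, and the libraries of each group were widely spread. The log2 fold change of -0.61 (SE 0.217) amounted to 0.657-fold (95% interval 0.453 to 0.953), at an adjusted p-value of 0.301 (edgeR) or 0.0271 (DESeq2).

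The direction of Pmaip1 held in all 22 alternatives, though with separate groups leaving out a library could hardly turn it. Single libraries moved its fitted difference in edgeR, from -0.42 without replicate 3 to -0.82 without replicate 2 of Treg exposed to HP1α KO Tconv. It was called by DESeq2 on all libraries, and in only 1 of the 6 DESeq2 fits that left out a library, the one without replicate 2 of the same group (adjusted p-value 4.15e-05). In the other 5 the adjusted p-values lay between 0.0802 and 0.206. The highest Pmaip1 level was again in the WT Tconv library with the most red cell and neutrophil RNA, and without it the log2 fold change was -0.50.

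Bcl2l11 (ENSMUSG00000027381, chr2:127967958-128004476, plus strand), encoding Bim, was at 71.4, 87.1 and 80.8 CPM with WT Tconv and at 79.4, 66.3 and 74.0 CPM with HP1α KO Tconv. The groups overlapped, with 0.918-fold, a 95% interval of 0.787 to 1.07 (edgeR adjusted p-value 0.596). The log2 fold change of -0.12 was -0.04 without WT Tconv replicate 2, -0.06 without HP1α KO Tconv replicate 2 and -0.18 without WT Tconv replicate 1. Bbc3 (ENSMUSG00000002083, chr7:16042318-16052130, plus strand), encoding Puma, another p53 target, was at 9.03, 11.97 and 17.2 CPM with WT Tconv and at 9.71, 11.8 and 9.83 CPM with HP1α KO Tconv. Its log2 fold change of -0.28 (standard error 0.230, edgeR adjusted p-value 0.611) was -0.0054 without the library with red cell and neutrophil RNA, and -0.47 without WT Tconv replicate 1.

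Bid (ENSMUSG00000004446, chr6:120862525-120894171, minus strand), the substrate by which caspase-8 links death receptors to mitochondria, was at 27.4, 28.0 and 25.5 CPM with WT Tconv and at 33.9, 29.7 and 36.7 CPM with HP1α KO Tconv. All 3 libraries of the latter group were higher. The log2 fold change of 0.31 (SE 0.0930) amounted to 1.24-fold (95% interval 1.07 to 1.44), at an adjusted p-value of 0.229 (edgeR) or 0.0665 (DESeq2). Bcl2l13 lies on the opposite strand and covers 31.2% of the exonic bases of Bid, and 1356 bases, or 61.6%, of the canonical Bid transcript are identical to it. Bcl2l13 itself was at 43.4 CPM ± 1.77 (SD, n = 3) with HP1α KO Tconv and 52.3 CPM ± 8.94 (SD, n = 3) with WT Tconv (log2 fold change -0.27, edgeR adjusted p-value 0.344), and at -0.12 without WT Tconv replicate 3.

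Bad (ENSMUSG00000024959, chr19:6918902-6929280, plus strand), which binds Bcl2 and Bcl-xL unless it is phosphorylated, was at 10.3, 9.69 and 9.83 CPM with WT Tconv and at 11.0, 14.4 and 11.1 CPM with HP1α KO Tconv. The groups did not overlap, but the log2 fold change of 0.29 (SE 0.129, edgeR adjusted p-value 0.353) came down to 0.15 without replicate 2 of the latter group. Bad shares 20.4% of its exonic bases with Gpr137 and 25.2% with the lncRNA Gm56656, both on the opposite strand. Gm56656 was not among the deposited genes.

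**Figure D3:**
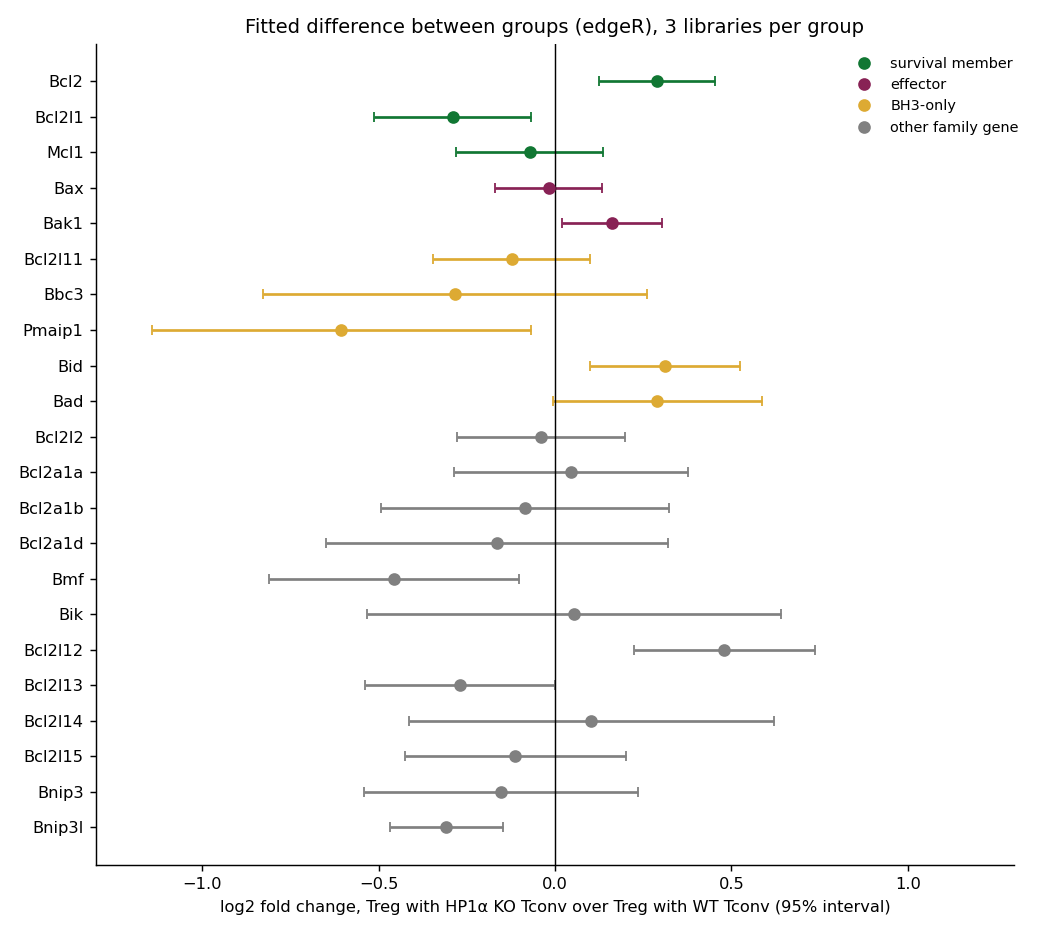
Fitted log2 fold change of each gene, Treg exposed to HP1α KO Tconv over Treg exposed to WT Tconv, with its 95% interval from edgeR, for the 10 genes (coloured by role) and 12 further family genes (grey). Among the 10, the intervals of Bcl2, Bak1 and Bid lie above 0, those of Bcl2l1 and Pmaip1 below 0, and the interval of Pmaip1 is about as wide as that of Bbc3.

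The balance of survival to death members was then expressed in each library as the summed CPM per kilobase of Bcl2, Bcl2l1 and Mcl1 over that of the other 7 genes. It is a score over the 10 genes and was given no test. The survival genes Bcl2a1a, Bcl2a1b and Bcl2a1d lie outside the 10, and the balance was not computed with them. Of these, Bcl2a1b was at 247 CPM per kilobase ± 39.2 (SD, n = 6), where Mcl1 was at 193 ± 14.7. The log2 ratio was 0.59, 0.56 and 0.44 with WT Tconv and 0.63, 0.68 and 0.74 with HP1α KO Tconv, and the groups did not overlap. The means were 0.53 ± 0.08 (SD, n = 3) and 0.68 ± 0.06 (SD, n = 3), a difference of 0.15.

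A few genes carried these sums. Mcl1 held 89.6% ± 0.677 of the survival sum with WT Tconv and 89.6% ± 1.57 with HP1α KO Tconv (SD, n = 3). Pmaip1 held 47.1% ± 3.17 of the death sum with WT Tconv and 35.8% ± 5.81 with HP1α KO Tconv, and its share did not overlap between groups. The death sum was 153 ± 9.18 and 130 ± 15.3 CPM per kilobase, and the survival sum 220.3 ± 3.45 and 209 ± 20.4 CPM per kilobase, both with overlap between groups.

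The separation of the balance depended on how it was built. The groups did not overlap in 3 of 7 settings and overlapped in 4. With the length of the longest transcript the log2 difference was 0.10, and with that of the canonical transcript it was 0.06. With the mean of log2 values on each side, which gives each gene the same weight, the difference was 0.01. Without Mcl1 and Pmaip1 it turned to -0.14, a setting chosen after the data had been seen.

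**Figure D4:**
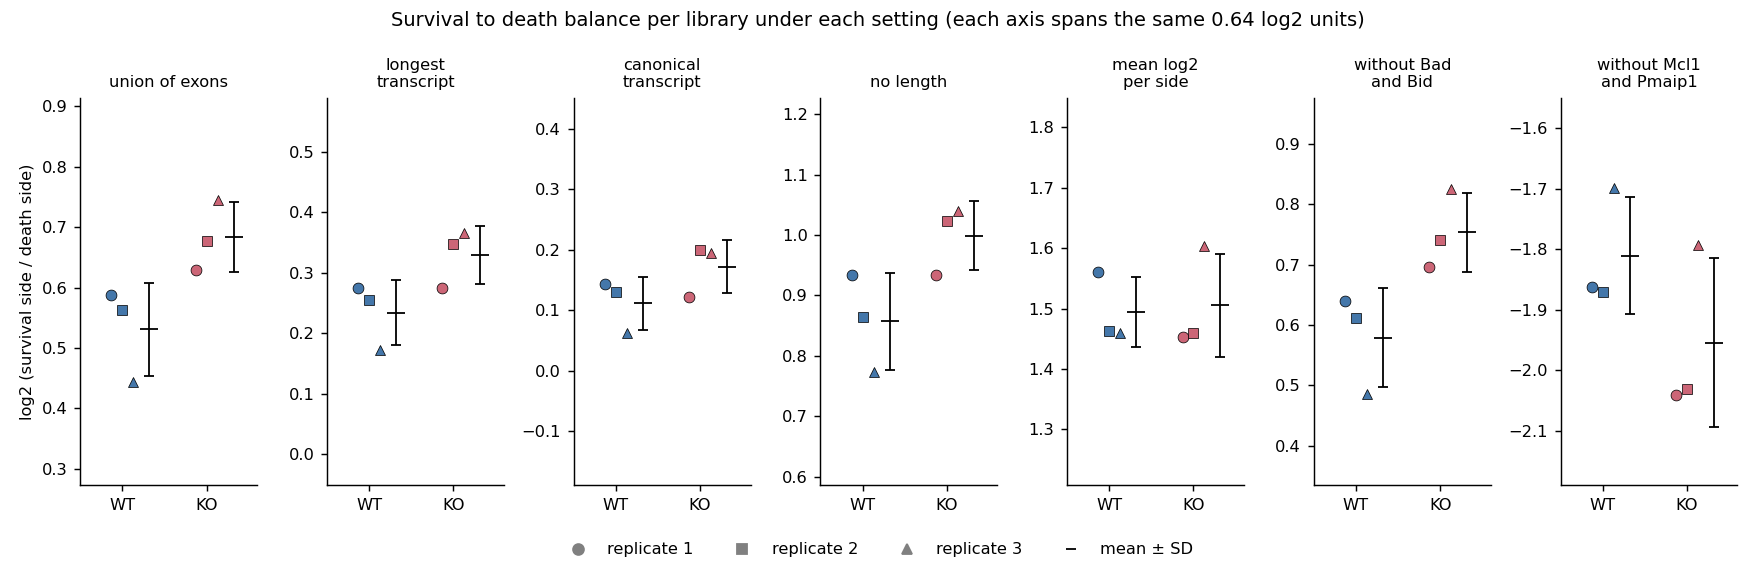
log2 ratio of the survival to the death side in each library under 7 settings, with replicates 1, 2 and 3 as circle, square and triangle, the mean ± SD beside them, and axes that span the same range but start at different values. The groups (WT, KO: genotype of the Tconv) are separate with the exon union, without length scaling and without Bad and Bid, and they overlap in the other 4 settings.

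Ratios of partners were formed within each library, again with no test. Mcl1 over Pmaip1, an inhibitor and its BH3-only ligand, was 3.05, 2.87 and 2.39 per kilobase with WT Tconv and 3.91, 3.49 and 4.89 with HP1α KO Tconv. The groups were separate. Bcl2 over Bcl2l1, the pair of inhibitors with opposite direction, was 0.440, 0.405 and 0.360 with WT Tconv and 0.558, 0.691 and 0.553 with HP1α KO Tconv, a separation that follows from the separate levels of both genes. Bcl2 over Bax was 0.165, 0.160 and 0.170 against 0.185, 0.208 and 0.221, also separate.

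Bcl2l1 over Bak1 lay the other way from Bcl2 over Bax, at 0.604, 0.631 and 0.714 against 0.455, 0.428 and 0.547, as the levels of both genes fix. Bcl2l1 over Bad, an inhibitor and its BH3-only ligand, was 6.68, 7.31 and 8.30 against 5.43, 3.80 and 6.01, likewise fixed by its 2 genes. Mcl1 over Bcl2 was 28.8, 31.5 and 29.9 against 24.8, 25.0 and 20.5, also without overlap. For Bim as the partner, the groups overlapped. Mcl1 over Bcl2l11 was 27.5, 23.4 and 24.5 with WT Tconv and 23.4, 32.2 and 23.0 with HP1α KO Tconv. Bcl2 over Bcl2l11 was 0.956, 0.742 and 0.820 against 0.943, 1.29 and 1.12, and overlapped.

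The other genes of the family were examined from a list of 15, all with a row in the table, of which 12 passed the filter on low counts. Bok, Hrk and Bcl2l10 did not pass it, with at most 5 counts in any library. None of the 12 had an edgeR adjusted p-value under 0.05, and 4 had an unadjusted p-value under 0.05, beside 14.5% of all genes tested. Bcl2l12, a divergent relative of the family, was at 7.86 ± 0.725 and 11.0 ± 0.554 CPM (SD, n = 3), with a log2 fold change of 0.48 (edgeR adjusted p-value 0.209). It was higher in all 3 libraries with HP1α KO Tconv, and its DESeq2 adjusted p-value was 0.00955.

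Bnip3l, a receptor for the removal of mitochondria that is abundant in maturing red cells, was at 190.4 ± 13.2 CPM with WT Tconv and 154 ± 2.61 CPM with HP1α KO Tconv (SD, n = 3). Its log2 fold change was -0.31, at an adjusted p-value of 0.209 (edgeR) or 0.0115 (DESeq2), and the highest value (203 CPM) was in the library with the most red cell RNA. Without that library, in a fit added after the data had been seen, DESeq2 called 257 genes in place of 687 and none of the 53 other apoptosis genes. The direction of Bnip3l and Bcl2l12 held there, with log2 fold changes of -0.27 and 0.42 (DESeq2 adjusted p-values of 0.0713 and 0.0574). Bmf, a BH3-only gene, was at 5.74 ± 0.677 and 4.19 ± 0.543 CPM, with an edgeR adjusted p-value of 0.254.

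The survival genes Bcl2a1a, Bcl2a1b and Bcl2a1d, near-identical copies between which reads cannot be assigned with certainty, were summed. Together they reached 317, 299.9 and 292 CPM with WT Tconv and 270.2, 358 and 216 CPM with HP1α KO Tconv, with overlap. Per kilobase, Bcl2a1b alone was at 247 ± 39.2 (SD, n = 6); Mcl1 was at 193 ± 14.7 on this scale.

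Downstream and upstream genes were read from 4 further lists, and none of their 41 tested genes passed in edgeR. The first list held 17 genes of the apoptosome, the caspases and their inhibitors. Casp2 had a log2 fold change of -0.20 and Endog, a mitochondrial nuclease of low abundance (2.24 ± 0.222 and 3.39 ± 0.637 CPM), one of 0.60, where edgeR gave adjusted p-values of 0.342 and 0.240. The groups overlapped for Casp2, and its log2 fold change was -0.13 without WT Tconv replicate 2. The median of the list was -0.02.

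Of 9 genes of the death receptor pathway, Tradd and Tnfrsf1a, an adaptor and the receptor of TNF signalling, were higher in all 3 libraries with HP1α KO Tconv, with log2 fold changes of 0.24 and 0.25 and edgeR adjusted p-values of 0.221 and 0.304. Tnfrsf10b, the receptor for TRAIL, was at 15.4 ± 0.910 and 11.6 ± 1.40 CPM (log2 fold change -0.40, adjusted p-value 0.222 by edgeR, 0.0410 by DESeq2). DESeq2 did not call it without any 1 of the WT Tconv libraries (adjusted p-values of 0.0597 to 0.176) or without HP1α KO Tconv replicate 3 (0.0962). The log2 fold changes of these fits were -0.31 to -0.45. DESeq2 called Tnfrsf10b without HP1α KO Tconv replicate 1 or replicate 2 (adjusted p-values of 0.0108 and 0.0396). The median of the list was 0.01.

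Of 12 upstream regulators, 2 had an unadjusted p-value under 0.05 (beside 14.5% of all genes), and the median was -0.10, beside -0.01 over all genes. The lowest level of 8 of the 12 was in replicate 2 with HP1α KO Tconv, as it was for 22.3% of all genes, and the part of that library in the median was not tested. Mdm2, the ligase that restrains p53, and Fbxw7, a ligase subunit that targets Mcl1, had log2 fold changes of -0.19 and -0.17 and edgeR adjusted p-values of 0.330 and 0.316. Without HP1α KO Tconv replicate 3 their log2 fold changes in edgeR were -0.12 and -0.13. The 3 Vdac genes, which encode the channels of the outer mitochondrial membrane, differed by 0.04 or less on the log2 scale, with 95% intervals within -0.16 and 0.22.

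**Figure D5:**
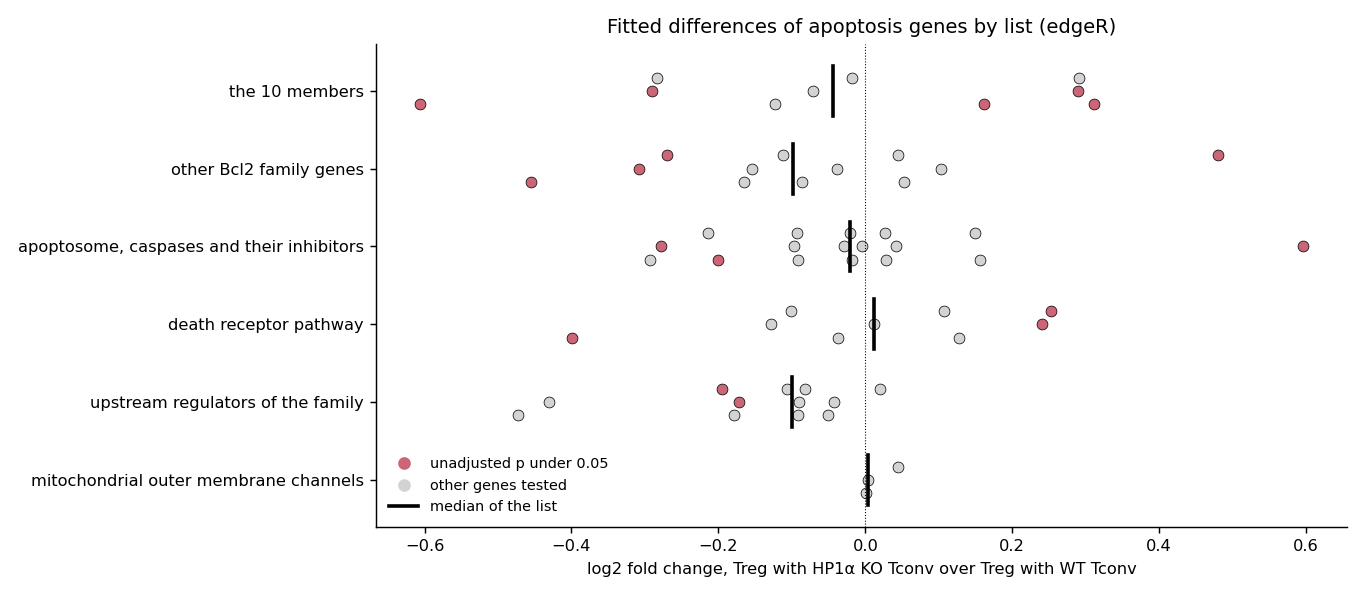
Fitted log2 fold change of each tested gene in the 10-gene set and in 5 further lists, with the median of each list as a black bar and genes with an unadjusted p-value under 0.05 in red (vertical offsets only separate the points). No gene shown passed after adjustment in edgeR, and the medians lie between -0.10 and 0.01.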

How the data were processed

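Total RNA libraries of sorted Treg, 3 per group, were trimmed by the authors, aligned to GRCm39 with STAR and quantified per gene with Salmon. The deposited values are estimated counts, not normalized and held as whole numbers. Reads that fit several genes were divided among them by estimation. Per the labels, each column was 1 library. Genes were tested with edgeR version 4.0.16 in R version 4.3.3 (filterByExpr, TMM, glmQLFit with robust estimation and the legacy method, glmQLFTest, group as sole term) over 18321 genes. CPM are TMM-scaled, except sums of marker genes. Standard errors (SE) were derived from the F statistic. Exon lengths and positions came from GENCODE vM39 on GRCm39, matching 28854 of 29199 identifiers. Alternatives were DESeq2 version 1.42.0, limma-voom (limma version 3.58.1), other scalings and filters, the replicate block and leaving out each library. The fit was tested on simulated data. Members and lists were chosen with earlier results of these data known. All 10 members were named, and of other lists the genes with an unadjusted p-value under 0.05, up to 3 in each direction by p-value. No accompanying sequence of Pmaip1 is reported here. A result that falls under the naming rule is not reported here.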

Additional observations from a re-analysis of the deposited data

How the results depend on the processing

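None of the 10 genes was called under any of the 15 planned edgeR and limma alternatives. Over all genes, the count of 0 became 1 with upper quartile scaling, 1 with the replicate block, 38 without a filter beyond 1 count and 687 with DESeq2, which called 2 of the 10 genes and 3 of 53 other apoptosis genes. Leaving out 1 library gave 0 to 2 genes in edgeR. With DESeq2, leaving out 1 library, which was added after the data had been seen, gave 444, 446 and 257 genes without WT Tconv replicates 1, 2 and 3 and 890, 1607 and 467 without HP1α KO Tconv replicates 1, 2 and 3. Of the 10 genes, 0 to 4 were called, with Bid and Mcl1 added when the second HP1α KO Tconv library was left out, and of the 53 others 0 to 10, with none when the third WT Tconv library was left out. Over all genes, 13.2% were called in the fit that gave 4 and 10, and 1.94% to 6.63% in the other 5. The replicate numbers did not pair the libraries (correlations of deviations of -0.07, 0.17 and 0.12 for numbers 1, 2 and 3), and the replicate block changed no call among the 10.

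Direction held in all 22 alternatives for 8 of the 10 genes, though with separate groups leaving out a library could hardly turn it. That of Bax turned with upper quartile scaling (0.0026) and with library totals (0.020), and ranged from -0.042 to 0.021 when 1 library was left out (-0.05 to 0.022 in DESeq2). That of Mcl1 ranged from -0.16 to 0.0010 when 1 library was left out (-0.17 to 0.0018 in DESeq2). The balance difference was 0.011 with mean log2 values, 0.060 with canonical lengths and -0.14 without Mcl1 and Pmaip1, and 0.11 to 0.18 without 1 library. The causes were not tested.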

Other observations

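Of the 12 upstream regulators, 8 had their lowest level in replicate 2 of Treg exposed to HP1α KO Tconv, as did 22.3% of all genes tested. This was noticed after the values were seen. Trp53, which encodes p53, was at 25.3 CPM there, against 47.0 to 61.2 CPM in the other 5 libraries. Foxo1, a transcription factor of resting T cells, was at 79.5 CPM against 155 to 195 CPM. Mdm4, a partner of Mdm2 in restraining p53, was at 220.0 CPM against 272 to 318 CPM, and Huwe1, a ligase that targets Mcl1, at 468 CPM against 552 to 624 CPM. Trp73, Foxo3, Usp9x and Btrc were also lowest there, while Mdm2, Fbxw7, E2f1 and Ddit3 were not. The group difference did not pass for Trp53 or Foxo1 on all libraries (edgeR adjusted p-values of 0.959 and 0.511). With that library left out, DESeq2 called Foxo1 (adjusted p-value 0.0331), with a log2 fold change of -0.22 against -0.48 on all libraries. That fit called 13.2% of all genes.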
